A study of Mus musculus with 16 samples.

Results

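Metallothioneins are small cysteine-rich proteins that bind zinc and copper, buffer free metal ions and take up reactive oxygen species. Mt1 and Mt2 are expressed in many tissues and are known as genes induced by zinc, through the metal-sensing transcription factor Mtf1, and by glucocorticoids. Mt3, also called growth inhibitory factor, is found mainly in the brain and responds less to metals. In the cortex, Mt1 and Mt2 are regarded as glial genes, while Mt3 has been described in astrocytes and in neurons. The results describe these 3 genes, Mt1, Mt2 and Mt3, which were taken by their symbols from the 24060 genes of the tables. The rule for membership uses the symbol and no measured value, although earlier results of these data were known when the genes were chosen.

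The 16 RNA-seq libraries came from the somatosensory cortex of Aldh1l1CreERT2-RiboTag mice on a C57BL/6J background, aged 3 months. All mice, naïve ones included, had received tamoxifen i.p. at 2 months of age, so that cells with Cre driven by the astrocyte gene Aldh1l1 made Rpl22, a protein of the large ribosomal subunit, with an HA tag. mRNA bound to the tagged ribosomes was pulled out of the lysate with an antibody against HA (IP), and RNA of the cleared lysate, from all cell types, served as INPUT. Stressed mice swam for 20 min and then rested for 90 min in their home cage, which naïve mice did not leave. The groups were naïve IP (replicates 2, 8, 11 and 13), stress IP (4, 5, 6 and 15), naïve INPUT (3, 7, 14 and 16) and stress INPUT (1, 9, 10 and 12), with n = 4 in each. The study used 4 male and 4 female mice and homogenized the tissue of each one by itself, but neither the sex of a library nor the IP and INPUT of one mouse is in the labels, so libraries were compared without pairing.

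Between 16392876 and 25814364 reads per library fell on genes. The summed level of 6 astrocyte markers was 78210 to 89420 CPM (fragments per 1000000 counted on genes) in IP and 4398 to 5299 CPM in INPUT, and all 6 were higher in IP of naïve mice, with a median log2 ratio of 3.58. Markers of neurons (415.9 to 538.3 CPM in naïve IP against 9601 to 10040 in naïve INPUT), oligodendrocytes, microglia and endothelial cells were lower in IP. Of the 3 mural markers, Rgs5 and Kcnj8 were lower in IP and Pdgfrb was higher (log2 difference 2.37), so that their sum was higher in IP, at 133.5 to 154.5 CPM against 49.6 to 53.7 CPM in INPUT of naïve mice. The blood markers Hba-a1, Hba-a2, Hbb-bt and Hbb-bs summed to at most 0.0979 CPM in any library. Hba-a1 and Hbb-bt were at 0 CPM in all groups, INPUT included, and only uniquely mapped reads were counted. Whether reads of these genes were lost in mapping was not tested, so the sum does not show that blood was absent. In naïve IP replicate 2 the choroid plexus markers Ttr and Folr1 summed to 114.6 CPM, while the remaining IP libraries held 0.482 to 6.65 CPM. Naïve IP replicate 11 stood apart in another way. Its Fkbp5, a classical glucocorticoid target, was at 39.8 CPM. The remaining naïve IP libraries held 5.31 to 8.56 CPM of it, and stress IP 20.1 to 71.8 CPM. Stress results for Mt2 in IP are given with and without it.

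The 3 genes lie in a row on mouse chromosome 8, all on the + strand (GRCm38, GENCODE M21). Mt3 (ENSMUSG00000031760) spans 94152607 to 94154146, Mt2 (ENSMUSG00000031762) 94172664 to 94173568 and Mt1 (ENSMUSG00000031765) 94179082 to 94180327. Between Mt3 and Mt2 are 18517 bases, and between Mt2 and Mt1 5513 bases. Each has 3 exons, of 549 bases together in Mt1, 511 in Mt2 and 536 in Mt3 for the transcript matched to RefSeq. The fourth gene of the cluster, Mt4, known from stratified epithelia, lies 13575 bases before Mt3 and had 0 reads in all 16 libraries, where 3 reads would be at most 0.183 CPM.

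The promoters are shown to mark matches to the metal response element near each start. Sequence farther away was searched neither for this element nor for that of glucocorticoids. Each stretch runs from 250 bases before the RefSeq start to 50 bases after it (300 bases, GRCm38.p6, + strand, from RefSeq), at chr8:94178839-94179138 for Mt1, chr8:94172368-94172667 for Mt2 and chr8:94152357-94152656 for Mt3. Capitals mark each match to the core of the metal response element, the sequence that Mtf1 binds, searched as TGCACNC or TGCGCNC on both strands.

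Mt1: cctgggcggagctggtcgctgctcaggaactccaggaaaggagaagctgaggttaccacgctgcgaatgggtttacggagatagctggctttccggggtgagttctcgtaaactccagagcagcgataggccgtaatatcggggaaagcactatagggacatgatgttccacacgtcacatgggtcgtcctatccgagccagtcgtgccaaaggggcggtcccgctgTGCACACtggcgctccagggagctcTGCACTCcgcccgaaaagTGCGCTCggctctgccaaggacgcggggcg

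Mt2: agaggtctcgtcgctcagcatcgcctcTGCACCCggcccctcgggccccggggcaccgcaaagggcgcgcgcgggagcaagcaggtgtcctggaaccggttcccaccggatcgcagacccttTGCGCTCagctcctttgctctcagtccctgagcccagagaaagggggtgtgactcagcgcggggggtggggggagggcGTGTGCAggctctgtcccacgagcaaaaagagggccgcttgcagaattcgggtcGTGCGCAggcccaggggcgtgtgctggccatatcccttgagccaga

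Mt3: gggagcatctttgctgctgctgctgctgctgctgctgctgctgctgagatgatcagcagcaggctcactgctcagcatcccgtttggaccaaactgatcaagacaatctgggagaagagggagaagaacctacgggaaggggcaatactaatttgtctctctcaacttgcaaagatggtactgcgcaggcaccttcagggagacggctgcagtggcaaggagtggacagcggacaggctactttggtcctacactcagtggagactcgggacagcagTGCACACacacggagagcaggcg

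Mt1 held 3 matches, all on the + strand, which began 23 bases before the start and at bases 3 and 21 after it. Mt2 held 4 matches, beginning at −223 and −128 on the + strand and at −50 and 5 on the opposite strand. GENCODE places the start of Mt2 later than RefSeq, at 94172664, close to the end of the window at 94172667. All 4 matches of Mt2 lie before that start, so these positions hold for the RefSeq start only. In Mt3 there was 1 match, at base 28. Of 32851 promoters of this length in the same table, 25.7% held at least 1 match, 1.97% at least 3 and 0.517% at least 4. The letters TGTTCT, the core of the glucocorticoid response element, were on neither strand of any of these 3 windows and in 19% of all promoters. A match describes the letters only and is not a measured binding site, and no match says only that the letters are absent from this window.

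**Figure D1:**
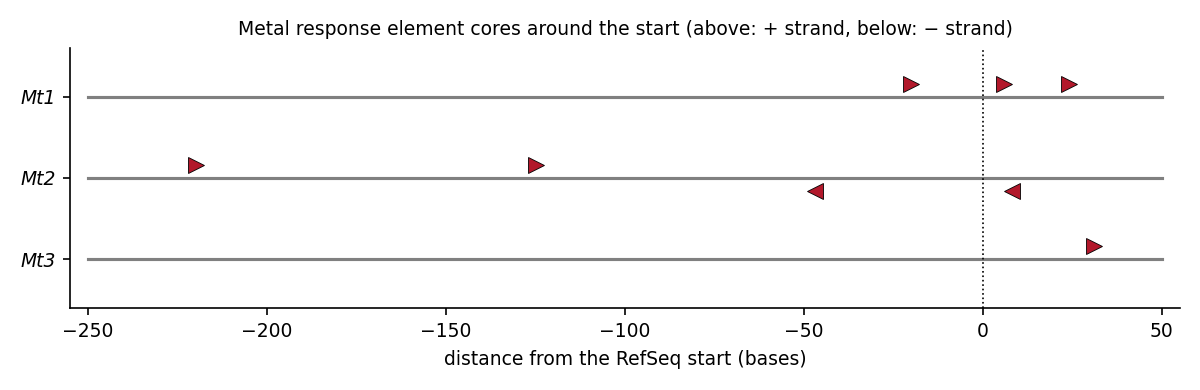
Position of the matches to the metal response element core, in bases from the RefSeq start (0 on the x axis), for Mt1, Mt2 and Mt3. Triangles above a line are matches on the + strand and those below it are on the opposite strand. Mt1 has 3 matches, Mt2 has 4 and Mt3 has 1.

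As the genes are related, stretches that their transcripts share were counted, since reads that map to several places were not kept. The longest run of identical bases was 20 between Mt1 and Mt2, 27 between Mt1 and Mt3 and 20 between Mt2 and Mt3, all shorter than a read of 69 bases. No window of 69 bases of the Mt1 or Mt3 transcript was found in a transcript of another gene. Of the 443 such windows of Mt2, 153 (34.5%) were also in the annotated antisense gene Gm45774, which overlaps Mt2 on the opposite strand. It is not among the counted genes, and since counting by strand is not given in the sources used here, reads of Mt2 and of this antisense RNA cannot be told apart.

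In ribosome-bound mRNA of astrocytes from naïve mice, Mt1 was at 982.6 ± 60.0 CPM (mean ± SD, n = 4), Mt3 at 542.7 ± 26.1 CPM and Mt2 at 124.3 ± 19.8 CPM. By mean CPM, Mt1 took place 97, Mt3 place 210 and Mt2 place 1333 among all genes of naïve IP. In naïve INPUT, Mt1 was at 207.3 ± 26.9 CPM, Mt3 at 165.0 ± 14.1 CPM and Mt2 at 23.8 ± 4.94 CPM. All 3 genes were thus measured far above the level of 3 reads, and the lowest number of reads on a member in any library was 323, for Mt2 in naïve INPUT.

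Levels of different genes are compared per kilobase of exon. In naïve IP, Mt1 reached 1790 ± 109 CPM per kb, Mt3 1012 ± 48.7 and Mt2 243 ± 38.7. The order Mt1, Mt3, Mt2 held in all 16 libraries, and in both IP groups the ranges of neighbouring genes did not overlap. In naïve INPUT the first 2 were closer, with Mt1 at 333.5 to 433.8 CPM per kb and Mt3 at 286.6 to 345.6, so that their ranges overlapped, and Mt2 was far below at 35.7 to 59.2. In stress INPUT, Mt1 (365.8 to 485.8 CPM per kb) and Mt3 (306.2 to 335.9) did not overlap. Dividing by the joint length of all annotated exons in GENCODE instead (1246 bases for Mt1, 1066 for Mt3 and 588 for Mt2) put Mt3 above Mt1 in 2 INPUT libraries, naïve replicate 3 and stress replicate 9.

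The values of every library show where the groups parted. Mt1 in naïve IP was at 934.8, 939.0, 1063 and 993.4 CPM in replicates 2, 8, 11 and 13, and in stress IP at 1150, 1001, 1111 and 919.2 CPM in replicates 4, 5, 6 and 15. In INPUT, Mt1 was at 183.1, 186.4, 238.1 and 221.5 CPM in naïve replicates 3, 7, 14 and 16 and at 200.8, 207.4, 266.7 and 246.1 CPM in stress replicates 1, 9, 10 and 12. The 8 IP libraries all lay above the 8 INPUT libraries, while naïve and stress values overlapped in both fractions. The lowest IP value of all was a stressed one, replicate 15.

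Mt2 in naïve IP was at 114.5, 119.9, 153.3 and 109.6 CPM in replicates 2, 8, 11 and 13, and in stress IP at 165.2, 166.9, 177.3 and 135.7 CPM in replicates 4, 5, 6 and 15. In INPUT, Mt2 was at 18.2, 23.3, 30.3 and 23.6 CPM in naïve replicates 3, 7, 14 and 16 and at 28.2, 26.7, 29.8 and 34.8 CPM in stress replicates 1, 9, 10 and 12. In IP the groups overlapped because naïve replicate 11 was above stress replicate 15, and in INPUT because naïve replicate 14 was above 3 stress libraries.

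Mt3 had the smallest SD relative to its mean of the 3 genes in each group. It was at 544.2, 527.4, 520.2 and 578.8 CPM in naïve IP (replicates 2, 8, 11 and 13) and at 513.4, 547.2, 519.8 and 494.8 CPM in stress IP (4, 5, 6 and 15). In INPUT, Mt3 was at 157.8, 153.6, 185.2 and 163.2 CPM in naïve replicates 3, 7, 14 and 16 and at 166.5, 180.0, 174.6 and 164.1 CPM in stress replicates 1, 9, 10 and 12. Here too every IP value was above every INPUT value, and naïve and stress values were interleaved.

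**Figure D2:**
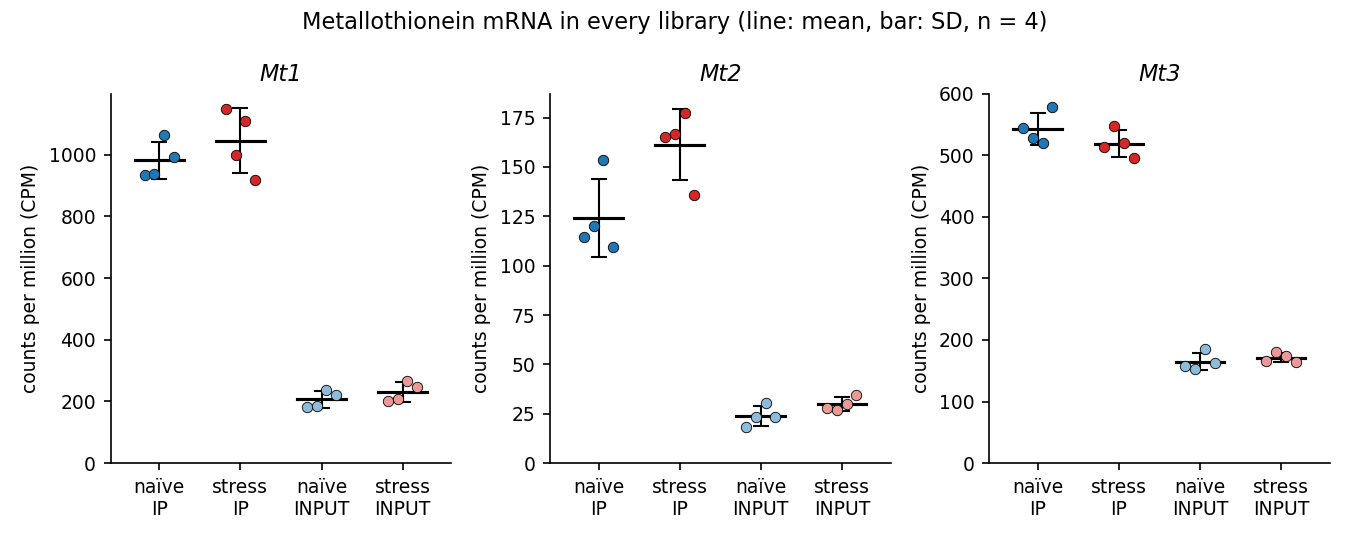
CPM of Mt1, Mt2 and Mt3 (y axes, linear from 0, a scale for each gene) in the 4 libraries of each group (x axis). Points are libraries, lines are means and bars are SD. IP lies above INPUT for each gene, and naïve and stress overlap for each gene in both fractions, with Mt2 of naïve IP between 109.6 and 153.3 CPM and of stress IP between 135.7 and 177.3 CPM.

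IP was compared with INPUT to ask how far each mRNA was concentrated on astrocyte ribosomes. All 3 genes were higher in IP, with the smallest ratio for Mt3. In naïve mice Mt2 was 5.23-fold higher (log2 difference 2.39, SE 0.14, limma adjusted p = 1.1e-09), Mt1 4.76-fold higher (2.25, SE 0.08, adjusted p = 8.6e-12) and Mt3 3.29-fold higher (1.72, SE 0.06, adjusted p = 9.5e-12). Of 13339 genes tested, 23.7% were called higher in IP. In stressed mice Mt2 was 5.39-fold higher (2.43, SE 0.10, adjusted p = 1.2e-10), Mt1 4.55-fold (2.19, SE 0.10, adjusted p = 3.6e-10) and Mt3 3.03-fold (1.60, SE 0.06, adjusted p = 3.1e-11), with 23.6% of 13333 genes called higher. No IP and INPUT values overlapped, so that the two-sided exact permutation test gave its smallest p, 0.029, for each gene in both conditions. In bulk samples, more cells of a type, more RNA per cell and a larger part of that RNA bound to ribosomes cannot be told apart.

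Called genes split into 3158 higher and 8540 lower in naïve mice, and with libraries scaled to the median ratio into 5599 and 5635 (3143 and 8332, then 5461 and 5505, in stressed mice). The median over all genes tested was below 0 in this comparison, at −0.64 (log2) in naïve mice and −0.63 in stressed mice. With that scaling, Mt1, Mt2 and Mt3 stood at 2.89, 3.03 and 2.36 (log2) in naïve mice and at 2.82, 3.06 and 2.23 in stressed mice. The astrocyte markers, with a median of 3.58 on the unscaled values, were above all 3 metallothioneins. From the highest log2 ratio down, Mt2 took place 570, Mt1 659 and Mt3 1034 of the genes tested in naïve mice.

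**Figure D3:**
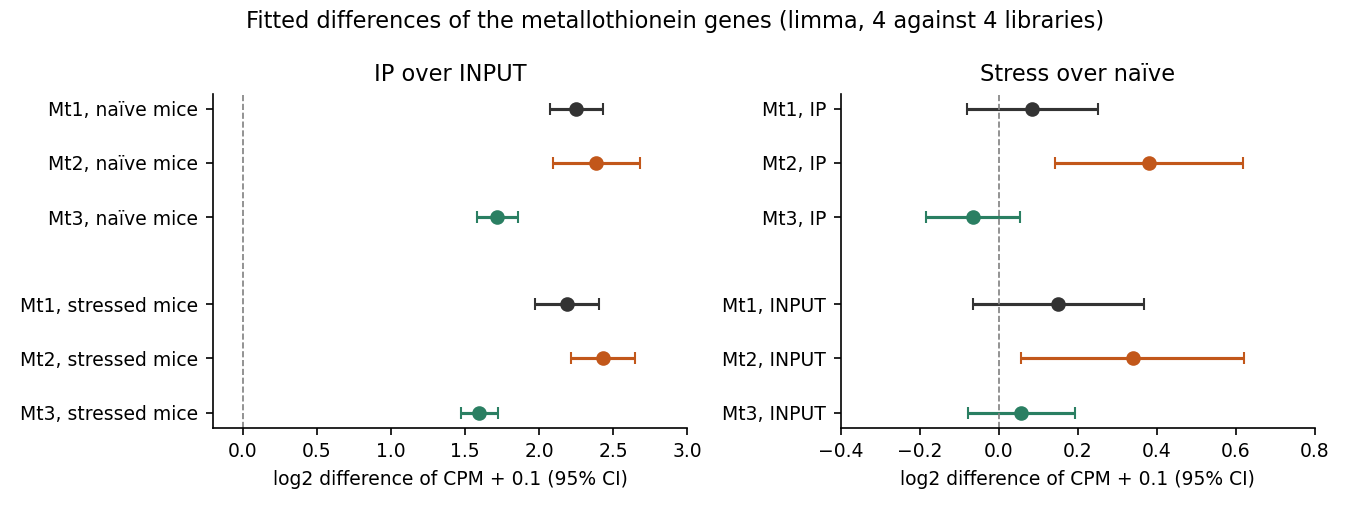
Fitted log2 differences of CPM + 0.1 (points) with 95% confidence intervals (bars) for IP over INPUT (left) and stress over naïve (right), with a dashed line at 0. Each fit used 4 against 4 libraries. All IP over INPUT intervals are above 0, with Mt3 the lowest in naïve and in stressed mice (1.72 and 1.60), and for stress the Mt2 intervals start at 0.14 in IP and 0.06 in INPUT while those of Mt1 and Mt3 include 0.

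The ratio of one member to another inside a library does not depend on how that library was scaled, and shows whether the 3 were concentrated alike. The ratio of Mt1 to Mt3 was 1.72 to 2.04 in naïve IP and 1.16 to 1.36 in naïve INPUT, a log2 difference of 0.53 (SE 0.08). In stressed mice it was 1.83 to 2.24 in IP and 1.15 to 1.53 in INPUT, a difference of 0.59 (SE 0.13). The ranges did not overlap in either condition. The ratio of Mt2 to Mt3 was 0.190 to 0.295 in naïve IP and 0.116 to 0.164 in naïve INPUT, a log2 difference of 0.67 (SE 0.17), and in stressed mice the difference was 0.83 (SE 0.13). These again did not overlap, and in each library set Mt3 had the smaller ratio of IP to INPUT, with an exact permutation p of 0.029, the smallest this design allows, for each of the 4 differences and 0.069 after Benjamini-Hochberg adjustment over 12 comparisons of ratios.

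The ratio of Mt1 to Mt2 differed less. Between naïve IP and naïve INPUT their log2 ratio differed by −0.14 (SE 0.12, exact permutation p = 0.29, adjusted 0.31), within the spread of the libraries. In stressed mice it was lower in IP by −0.24 (SE 0.09), with no overlap (exact permutation p = 0.029, adjusted 0.069). Of the summed CPM of the 3 genes, Mt1 made up 59.5% ± 1.15 (SD, n = 4) in naïve IP and 52.3% ± 1.48 in naïve INPUT, Mt3 32.9% ± 2.05 and 41.8% ± 1.74, and Mt2 7.52% ± 0.97 and 5.98% ± 0.71. Mt3 thus made up a larger part of metallothionein mRNA in the whole tissue than on astrocyte ribosomes.

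**Figure D4:**
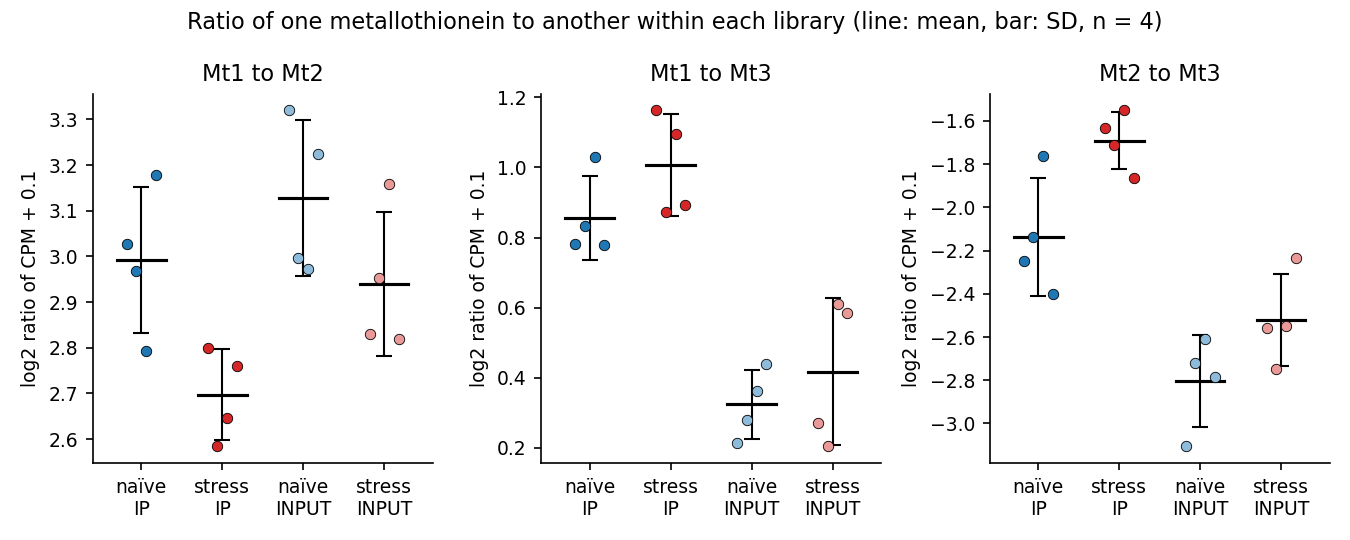
log2 ratio of Mt1 to Mt2, Mt1 to Mt3 and Mt2 to Mt3 (y axes, a scale for each ratio, not starting at 0) in every library of the 4 groups (x axis). Points are libraries, lines are means and bars are SD. For both ratios to Mt3 the IP libraries lie above the INPUT libraries of the same condition, and for Mt1 to Mt2 the naïve groups overlap.

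Stress was then compared with naïve in each fraction. Of the 3 genes, Mt2 had the largest difference in both, and none passed the threshold across all genes. In IP, Mt2 was 1.30-fold higher after stress (log2 difference 0.38, SE 0.11, 95% CI 0.14 to 0.62), with a limma p of 0.0045 that became 0.26 after adjustment over 12501 genes, and an exact permutation p of 0.057. Mt1 differed by 0.09 (SE 0.08, 95% CI −0.08 to 0.25, limma adjusted p = 0.82, exact p = 0.34) and Mt3 by −0.06 (SE 0.05, 95% CI −0.18 to 0.06, adjusted p = 0.80, exact p = 0.20). In this comparison 55 genes were called, 0.44% of those tested, and 1034 had an unadjusted p under 0.05. limma-voom on the recovered reads called 49 genes and also none of the 3.

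Whether Mt2 passed in IP depended on single libraries. Without naïve IP replicate 11, the naïve library with high Fkbp5 and the highest Mt2 of its group, its log2 difference was 0.49 (SE 0.09) and the limma adjusted p was 0.018, so that Mt2 was then among 122 genes called of 12495 tested. With weights for the quality of each library it was 0.48 (SE 0.09, adjusted p = 0.019). Without stress IP replicate 15, the stressed library lowest in Mt2, it was 0.46 with an adjusted p of 0.0595. Leaving out each of the other 6 libraries gave 0.32 to 0.37, none of them past the threshold. Mt1 and Mt3 were past it in none of these fits.

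In INPUT, Mt2 was 1.27-fold higher (log2 difference 0.34, SE 0.13, 95% CI 0.06 to 0.62), with a limma p of 0.022, adjusted 0.90, and an exact permutation p of 0.11. Mt1 differed by 0.15 (SE 0.10, 95% CI −0.07 to 0.37, limma adjusted p = 0.99) and Mt3 by 0.06 (SE 0.06, 95% CI −0.08 to 0.19, adjusted p = 0.99). Few genes passed here, 6 of 13577 or 0.0442%, and 683 had an unadjusted p under 0.05. Without naïve INPUT replicate 14, where Fkbp5 was at 49.3 CPM and elsewhere in its group at 22.5 to 27.1 CPM, the Mt2 difference was 0.46 (SE 0.11, limma adjusted p = 0.21). Without naïve INPUT replicate 3, the library lowest in Mt2, it was 0.22 (SE 0.12), and without stress INPUT replicate 12, the highest, 0.26 (SE 0.14). Over the 8 libraries left out in turn it ranged from 0.22 to 0.46, never past the threshold.

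Set against each other, the stress effects in IP and INPUT did not differ detectably for any of the 3 genes. The difference of the log2 effects was −0.06 for Mt1 (SE 0.14, 95% CI −0.36 to 0.23), 0.04 for Mt2 (SE 0.19, 95% CI −0.35 to 0.43) and −0.12 for Mt3 (SE 0.08, 95% CI −0.30 to 0.06), with a limma adjusted p of 0.9999 for each. Of 13341 genes, 0.0225% were called. These intervals are wide beside the effects themselves, and do not show that the effects were equal.

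Within libraries, the ratio of Mt2 to Mt3 was 0.45 (log2, SE 0.15) higher after stress in IP and that of Mt1 to Mt2 0.30 lower, at −0.30 (SE 0.09), each with an exact permutation p of 0.057, adjusted 0.098 over the 12 comparisons. The ratio of Mt1 to Mt3 differed by 0.15 (SE 0.09, exact p = 0.17, adjusted 0.21). In INPUT the same ratios differed by 0.28 (Mt2 to Mt3, exact p = 0.086), −0.19 (Mt1 to Mt2, exact p = 0.17) and 0.09 (Mt1 to Mt3, exact p = 0.46). Naïve and stress ratios overlapped in all of these. In IP the overlap of both ratios with Mt2 came from naïve replicate 11 alone. Dixon's ratio, the gap to the nearest value over the range, was not past its critical value for that library in naïve IP. It was 0.76 for Mt2 CPM, 0.45 for Mt1 to Mt2 and 0.59 for Mt2 to Mt3. The library was singled out by its values, so the differences without it are descriptions. Without it the log2 ratio of Mt2 to Mt3 was −2.40 to −2.14 in naïve and −1.87 to −1.55 in stress IP, a difference of 0.57, and that of Mt1 to Mt2 was 2.97 to 3.18 and 2.58 to 2.80, a difference of −0.36 (exact permutation p = 0.057 for each, the smallest that 3 against 4 libraries gave with the smaller tail doubled).

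The level of Mt2 is set here beside Fkbp5, the glucocorticoid-induced co-chaperone of the glucocorticoid receptor, library by library. In IP, Fkbp5 was at 6.36, 8.56, 39.8 and 5.31 CPM in naïve replicates 2, 8, 11 and 13 and at 71.8, 29.7, 28.2 and 20.1 CPM in stress replicates 4, 5, 6 and 15. In INPUT it was at 22.5, 23.9, 49.3 and 27.1 CPM in naïve replicates 3, 7, 14 and 16 and at 43.7, 44.3, 62.7 and 53.0 CPM in stress replicates 1, 9, 10 and 12. The naïve library with the most Fkbp5 was also the naïve library with the most Mt2, in IP (replicate 11) as in INPUT (replicate 14), and stress IP replicate 15 had the least of both genes among the stressed IP libraries. This was not particular to Mt2. In its group, replicate 11 was also highest in Mt1 (1063 CPM), though lowest in Mt3 (520.2 CPM). Replicate 14 was also highest in Mt1 (238.1 CPM) and Mt3 (185.2 CPM), and replicate 15 lowest in both (919.2 and 494.8 CPM). In both naïve groups Fkbp5 and Mt2 had the same order of libraries. From lowest to highest it was replicates 13, 2, 8 and 11 in IP and 3, 7, 16 and 14 in INPUT. Mt1 had that order too in naïve INPUT, but not in naïve IP. The agreement was not tested. In the stressed groups the order of Fkbp5 and Mt2 was not shared. In stress IP the most Fkbp5 was in replicate 4 and the most Mt2 in replicate 6, and in stress INPUT the most Fkbp5 was in replicate 10 and the most Mt2 in replicate 12, with the least in replicates 1 and 9. Whether the IP and INPUT libraries concerned came from one mouse is not given, and what sets them apart was not tested.

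**Figure D5:**
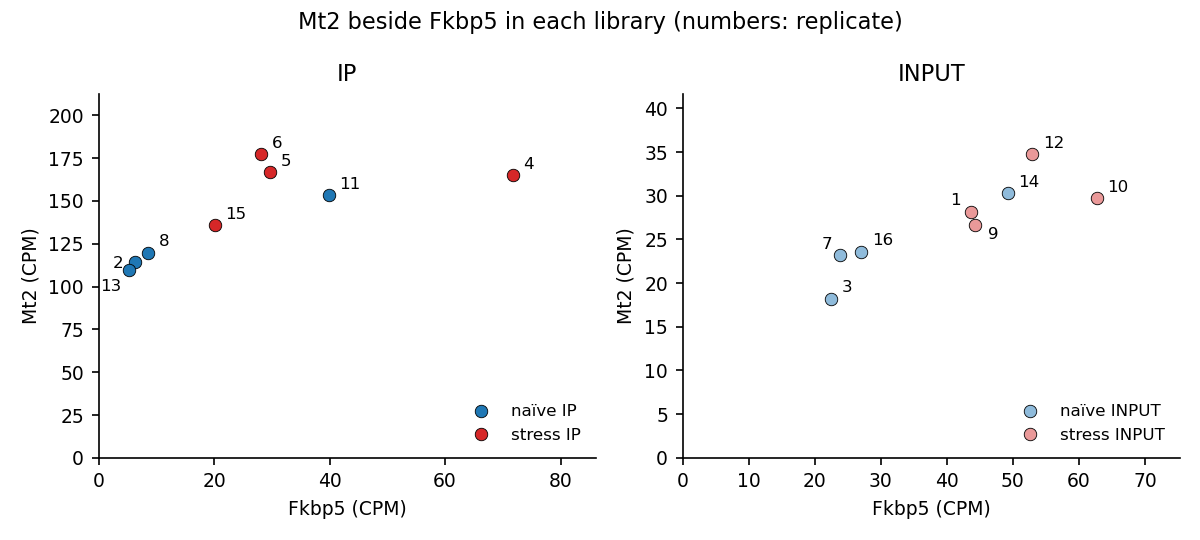
Mt2 (y axis, CPM) against Fkbp5 (x axis, CPM) in each IP library (left) and each INPUT library (right). Numbers are replicates. Naïve IP replicate 11 (39.8 CPM of Fkbp5, 153.3 CPM of Mt2) and naïve INPUT replicate 14 (49.3 and 30.3 CPM) lie among the stressed libraries.

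Of 13 glucocorticoid targets, 2 passed the test after stress in IP (both higher) against 0.44% of all genes tested, and the median log2 difference was 0.52, against −0.0036 for all genes. They were Tsc22d3, a regulator induced by glucocorticoids (log2 difference 1.14, SE 0.21, limma adjusted p = 0.039), and the NF-κB inhibitor Nfkbia (1.14, SE 0.19, adjusted p = 0.025). The number that passed depended on the processing. It was 2 with limma-voom, 1 with libraries scaled to the median ratio, 1 with quantile normalization and 0 without the variance trend. Of all 12501 genes, these fits called 49, 49, 44 and 19. In each of them 9 of the 13 had an unadjusted p under 0.05. Without naïve IP replicate 11, 6 of the 13 passed, beside 122 of all 12495 genes, and the median was 0.78. That library was singled out by its high Fkbp5, which is itself on this list. The rise without it is therefore no independent result. In INPUT none passed with limma or limma-voom, 10 had an unadjusted p under 0.05, beside 683 of all 13577 genes, and the median was 0.63. The Mt2 differences of 0.38 and 0.34 were below these medians.

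Markers of other cell types were compared between naïve and stress IP as well. The level of 4 endothelial markers together was 8.68 to 12.4 CPM in naïve IP and 6.59 to 8.53 CPM in stress IP, and none of the 2 markers tested there passed. The 5 neuron markers summed to 415.9 to 538.3 CPM in naïve IP and 327.6 to 479.4 CPM in stress IP, with log2 differences from −0.21 to −0.33, none of which passed (adjusted p of 0.52 to 0.80). The 3 mural markers summed to 133.5 to 154.5 CPM in naïve IP and 98.4 to 144.9 CPM in stress IP. Most of that sum was Pdgfrb (−0.25, adjusted p = 0.57), while Rgs5 differed by 0.17 (adjusted p = 0.93). Their part in the Mt2 values was not tested.

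Factors known to act on metallothionein genes were measured in the same libraries. Of 7 (Mtf1, the receptors Nr3c1 and Nr3c2, Nfe2l2, Stat3, Hif1a and Usf1), 5 were higher and 2 lower in IP than in INPUT of naïve mice, and with libraries scaled to the median ratio 6 were higher and none lower. Over all 13339 genes 3158 were higher and 8540 lower, and with that scaling 5599 and 5635. The median of the 7 was 0.24 (log2) against −0.64 for all genes. Nfe2l2, the regulator of the antioxidant response, averaged 107.4 ± 8.66 CPM in IP and 15.1 ± 0.79 CPM in INPUT of naïve mice (log2 difference 2.83, SE 0.07, limma adjusted p = 2.5e-13). Stat3, which carries cytokine signals, was higher by 1.46 (SE 0.05, adjusted p = 8.2e-12). Mtf1 itself was at 36.6 ± 2.30 CPM (naïve IP) and 41.3 ± 2.09 CPM (naïve INPUT) (−0.18, SE 0.07, adjusted p = 0.028), and under that scaling its sign turns, since the scaling adds 0.64. After stress none of the 7 passed in either fraction with limma or limma-voom, and the number with an unadjusted p under 0.05 was 0 in IP and 1 in INPUT, the glucocorticoid receptor Nr3c1 (−0.19, adjusted p = 0.49), named here for its value.

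Zinc and copper handling genes were split between the fractions. Of 33 listed, all were in the tables, 28 passed the filter on low values, and in naïve mice 13 were higher and 11 lower in IP, or 18 and 6 with libraries scaled to the median ratio, against 3158 and 8540, or 5599 and 5635, of all genes. The median was −0.01 (log2) against −0.64 for all genes. Highest was Slc39a12, which encodes the zinc importer ZIP12, with 925.1 ± 63.0 CPM in IP and 69.6 ± 5.13 CPM in INPUT of naïve mice (log2 difference 3.73, SE 0.07, limma adjusted p = 1.4e-14). The exporter gene Slc30a10 (2.23, SE 0.09) and the copper importer gene Slc31a1 (1.21, SE 0.08) followed. The log2 ratio of Slc39a12 was above those of the 3 metallothioneins, and that of Slc30a10 was close to the 2.25 of Mt1.

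Lowest were Slc30a3, which encodes the transporter that loads zinc into synaptic vesicles, with 6.96 ± 1.07 CPM in IP and 99.6 ± 9.99 CPM in INPUT of naïve mice (−3.83, SE 0.11, limma adjusted p = 8.2e-13), Slc39a10 (−2.37, SE 0.05) and Slc30a4 (−1.71, SE 0.06). Slc30a1, a zinc exporter gene known as an Mtf1 target, averaged 47.7 ± 4.59 CPM in IP and 36.0 ± 1.26 CPM in INPUT of naïve mice (0.40, SE 0.08, adjusted p = 0.00024), and after stress it differed by −0.06 (SE 0.09) in IP and 0.05 (SE 0.07) in INPUT. None of the list passed after stress with limma or limma-voom in either fraction, out of 27 tested in IP and 28 in INPUT, and the medians were 0.01 in both. With an unadjusted p under 0.05 there was 1 gene in each, Slc39a14, named here for its value, at 0.21 in IP and 0.14 in INPUT, beside 1034 of 12501 and 683 of 13577 of all genes.

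The genes whose pattern over the 16 libraries was most like that of each member were found from the root mean square difference of gene-centred log2 values, over 13340 genes. For Mt1 these were the phospholipid acyltransferase gene Lpcat3 (0.128), the magnesium transporter gene Slc41a1, Tcn2, Capn2 and Agpat5 (0.139). For Mt2 they were Pnpla2, which encodes a triglyceride lipase (0.167), the lipogenic gene Thrsp (0.169), Mt1 (0.203), the quinone reductase gene Nqo1 and Cpne3 (0.234). For Mt3 they were Shmt2, of mitochondrial serine metabolism (0.0873), Agpat3, Tspan7, Slc3a2 and the lysosomal gene Lamp1 (0.0962). Mt1 was thus at place 3 for Mt2, while Mt2 was only at place 104 for Mt1, and Mt3 was at place 472 for Mt1 and 727 for Mt2. All of these genes were higher in IP than in INPUT of naïve mice, as the members were. The measure takes IP and INPUT libraries together, so this follows from how the genes were picked and is no separate result.

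Over the 8 libraries of a fraction, the correlation was highest between Mt1 and Mt2. Between Mt1 and Mt2, Pearson's r was 0.73 (permutation p = 0.0497) and Spearman's rho 0.67 (permutation p = 0.083) in IP, and 0.78 (permutation p = 0.021) and 0.83 (permutation p = 0.015) in INPUT. After adjustment over 6 relations the p-values were 0.15 and 0.17 in IP and 0.13 and 0.092 in INPUT, so none stayed under 0.05. Without the 2 libraries farthest from the median of Mt1, r was 0.51 in IP (permutation p = 0.29) and 0.75 in INPUT (permutation p = 0.088). With each stress group centred on its own mean, r was 0.74 in IP and 0.73 in INPUT. Between Mt1 and Mt3, r was −0.14 in IP and 0.58 in INPUT, and between Mt2 and Mt3 −0.48 and 0.55, none of them with an adjusted p under 0.05. The sign of both correlations with Mt3 in IP was not stable. Without 2 libraries r was 0.28 for Mt1 and Mt3 and 0.24 for Mt2 and Mt3, and with stress groups centred 0.06 and −0.18. In INPUT without 2 libraries, r was 0.46 for Mt1 and Mt3 (permutation p = 0.37) and 0.80 for Mt2 and Mt3 (permutation p = 0.0625). The second is above the 0.75 of Mt1 and Mt2, so the ranking in INPUT was not stable. The libraries left out were not the same for each pair. Whether the correlations differ from each other was not tested.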

How the data were processed

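The authors aligned 69-base paired reads to mm10 with STAR, counted uniquely mapped fragments on RefSeq genes with HTSeq, and deposited 1 table per library of log2 CPM for 24060 genes (fragments per 1000000 counted on genes, plus a small constant), with no scaling between libraries. From the floor of −6.40, 100% of the values gave whole reads, to within 0.05 of a read. Library names and groups came from the labels, which also name edgeR and limma among the tools of the submitters. By the methods, all samples were put in one pool and sequenced over 2 lanes. The lane and the day of handling of each library are not given here, so no batch could be split off. The labels place tamoxifen 1 month before the experiment, the methods 2 weeks.

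Tests between groups used limma (version 3.58.1, R 4.3.3), with linear fits moderated by eBayes under a variance trend, on log2(CPM + 0.1), which understates changes of low genes, over genes with a mean above 1 CPM, with Benjamini-Hochberg adjusted p under 0.05. A comparison of 2 groups used their 8 libraries, and the difference of the stress effects used all 16. For single genes and ratios the 70 labelings of 8 libraries gave a two-sided exact permutation test (smallest p 0.029), and correlations an exact permutation test over pairings. Depth floors of 3 reads cover counting error only. Precision is set by the spread between mice.

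Named are the 3 genes, genes called in the lists of zinc and copper handling, inducing factors and glucocorticoid targets, the 3 highest and 3 lowest called in IP over INPUT, Mt4, Mtf1, Slc30a1, Fkbp5, the cell type markers, and the 5 genes nearest to each member. The members and lists were chosen with earlier results of these data known, so counts over the lists are descriptions. Alternatives were the pseudocount, the filter, the scaling, limma-voom on recovered read counts, a constant variance, weighted libraries (array weights), 1 model of all 16 libraries, a covariate from Xist standing for sex, the exon length (all GENCODE exons together was added after seeing the data) and each library left out. Promoters came from the RefSeq table, where all 3 members were found, and transcripts and coordinates from GENCODE M21. Figures were drawn with matplotlib 3.10.9 under Python 3.11.15.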

Additional observations from a re-analysis of the deposited data

How the results depend on the processing

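No paired analysis was possible because the groups compared share no replicate number and the mouse behind each library is not given. Of 612 values under alternatives, 549 kept their direction and side of the threshold or stayed within the spread. IP over INPUT of all 3 genes passed under each alternative run. Mt2 after stress in IP was 0.48 with array weights (adjusted p = 0.019) and 0.32 to 0.49 with 1 library left out. Its limma adjusted p ran from 0.018 to 0.72 with 1 library left out, and reached 0.46 over the other alternatives. Genes called after stress in IP numbered 143 with array weights, 19 without the variance trend and 129 with all 16 libraries in one model, against 55, and 17 to 122 with 1 library left out. In INPUT they numbered 50 with array weights and 0 without the trend (limma, 727 with an unadjusted p under 0.05), against 6, and 1 to 32 with 1 library left out. For the difference of the stress effects 19 were called with array weights and 2 to 28 with 1 library left out, against 3. That difference ranged from −0.13 to 0.0090 for Mt1 and from −0.080 to 0.16 for Mt2 with 1 library left out, so its sign is not fixed. The causes were not tested. With 3 against 4 libraries the exact test, which doubles the smaller tail, cannot go below 0.057, so the ratios without a library say nothing on stability. Leaving out 1 library moved r of Mt1 and Mt2 from 0.66 to 0.82 in IP and from 0.69 to 0.84 in INPUT, r of Mt1 and Mt3 in IP from −0.57 to 0.040, and r of Mt2 and Mt3 in INPUT from 0.43 to 0.76.

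Lengths changed the levels per kb by construction. With the exon length less a fragment of 125 bases, Mt1 was at 2312, 2460, 487.7 and 541.8 CPM per kb (naïve then stress, IP before INPUT), Mt2 at 321.3, 416.8, 61.6 and 77.1, and Mt3 at 1317, 1259, 400.4 and 415.8. With all GENCODE exons together, Mt1 was at 788.6, 839.0, 166.4 and 184.8, Mt3 at 509.1, 486.7, 154.8 and 160.7, and Mt2 at 274.3 in stress IP and 50.8 in stress INPUT.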
